A study of Mus musculus with 8 samples.

Results

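Plasma cells are B lineage cells that have given up the B cell program and secrete antibody. The 7 genes described here, of 52636 genes counted, are Jchain, Mzb1, Prdm1, Xbp1, Sdc1, Tnfrsf17 and Derl3. They were chosen by name as genes of that differentiation and matched to Ensembl identifiers through their symbols, and all 7 were found. The data are stranded mRNA sequencing counts of immune cells prepared from spleen and lymph node of mice that were 35 to 55 days old and had no disease signs. The 8 columns of the table are 4 groups of 2, namely TCR1640 males, TCR1640 females, SJL/J males and SJL/J females. The T cells of TCR1640 mice express a transgenic receptor for a myelin protein, and these mice, bred on SJL/J, get autoimmune encephalomyelitis without immunization. SJL/J mice are the wild-type strain, and what drives the transgene is not given in the sources used here. Cells of all 4 groups were cultured for 4 days with anti-CD3 (1 μg/ml), IL-23 (20 ng/ml), TGF-β (4 ng/ml), IL-6 (20 ng/ml) and IL-12 (3 ng/ml), so every value describes T cell stimulated cultures and none describes fresh tissue or a plasma cell culture. The study compared males with females in each strain, and the strains with each other.

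Differences between the 2 columns of a group were close to sampling noise, so the columns were summed and counted as 1 sample, and n = 1 per group throughout. Nothing in the labels says that the columns came from separate mice. Summed totals were 10005975 counts for TCR1640 males, 7937262 for TCR1640 females, 7678860 for SJL/J males and 8378659 for SJL/J females. The sex labels matched Eif2s3y, a Y-linked gene with 87 to 124 counts in male columns and 0 in female columns. The strain labels did not match the T cell receptor segments. Traj43 took 2.91% and 5.04% of alpha joining segment counts in males and females labelled TCR1640, against 79.2% and 75.6% in males and females labelled SJL/J. A receptor transgene would narrow these segments, so each strain direction below is drawn between library labels that the segments go against. Strain names are written as "TCR1640-labelled" and "SJL/J-labelled" for that reason.

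In a B cell that becomes a plasma cell, Prdm1 encodes Blimp-1, a repressor that shuts off B cell genes, and Xbp1 encodes the transcription factor that enlarges the endoplasmic reticulum (ER) for antibody secretion. The other members act further down. Jchain links IgA into dimers and IgM into pentamers, Mzb1 is an ER protein that helps antibody chains assemble, and Derl3 is a membrane protein of ER-associated degradation that is induced through XBP1. Sdc1, or CD138, is the surface proteoglycan used to sort plasma cells, and Tnfrsf17, or BCMA, is the receptor through which APRIL and BAFF keep them alive. Prdm1 and Xbp1 are not restricted to plasma cells, since activated and effector T cells use both.

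XBP1 is made in its active form only after the enzyme IRE1 cuts a short stretch out of the Xbp1 mRNA. That stretch, from GENCODE M21 on GRCm38, is at chr11:5524279-5524304 on the plus strand and lies inside 1 annotated exon. It is shown in capitals with its flanks because counts per gene add up both forms of the mRNA, so every Xbp1 value below is their sum.
Xbp1 excised stretch: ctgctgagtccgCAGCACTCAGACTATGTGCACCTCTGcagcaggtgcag
The cut form was not measured separately, and no level of active XBP1 follows from these counts.

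Promoters are shown for the member with the widest range of levels, Jchain, and for the XBP1 target Derl3. They are the 250 bases before the start in RefSeq on GRCm38.p6, where 6 of the 7 members matched an entry. Searched on both strands were the ER stress element bound by ATF6 and XBP1 (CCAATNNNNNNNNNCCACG), the core ACGTG, the octamer ATGCAAAT and the Blimp-1 core GAAAGT. Capitals mark the matches, and the cores on the 2 strands of Derl3 overlap each other.
Jchain promoter, chr5:88527898-88528147, minus strand: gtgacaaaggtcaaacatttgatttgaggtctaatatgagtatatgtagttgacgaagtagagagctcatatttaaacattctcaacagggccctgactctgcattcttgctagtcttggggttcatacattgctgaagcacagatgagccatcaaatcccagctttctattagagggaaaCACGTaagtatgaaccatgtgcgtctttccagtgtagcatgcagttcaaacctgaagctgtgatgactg
Derl3 promoter, chr10:75893148-75893397, plus strand: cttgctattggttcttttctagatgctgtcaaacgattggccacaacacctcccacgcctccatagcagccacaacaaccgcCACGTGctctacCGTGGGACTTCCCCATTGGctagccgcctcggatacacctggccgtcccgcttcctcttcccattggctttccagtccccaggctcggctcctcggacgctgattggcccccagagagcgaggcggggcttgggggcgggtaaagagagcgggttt
In Derl3 the ER stress element lay at -156 to -138 on the minus strand, counted from the start, and 37 of 32851 promoters of this length (0.113%) held it. Both Derl3 and Jchain held ACGTG, as did 16.6% of promoters. GAAAGT was found in Tnfrsf17 and in 12.3% of promoters, and the octamer in none of these members and in 1.6% of promoters. Prdm1, Xbp1 and Sdc1 held none of these letters in this window. A match is a description of letters and not a bound site.

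Levels of the members were compared per length of exon, as RPKM (CPM, the counts scaled to library size, divided by exon length), averaged over the 4 groups. Xbp1 stood highest at 14.3 RPKM and Prdm1 next at 5.86 RPKM. Mzb1 (1.92 RPKM), Jchain (1.48 RPKM) and Derl3 (1.22 RPKM) followed. Sdc1 averaged 0.42 RPKM and Tnfrsf17 0.113 RPKM. The order of Mzb1, Jchain and Derl3 is not firm, since Jchain alone spanned 0.16 RPKM in TCR1640-labelled males to 3.39 RPKM in SJL/J-labelled males, a 21.2-fold range. The members other than Jchain and Tnfrsf17 spanned 1.35-fold to 2.83-fold. The 2 transcription factors that T cells share were therefore the highest members, and the surface markers of plasma cells the lowest.

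**Figure D1:**
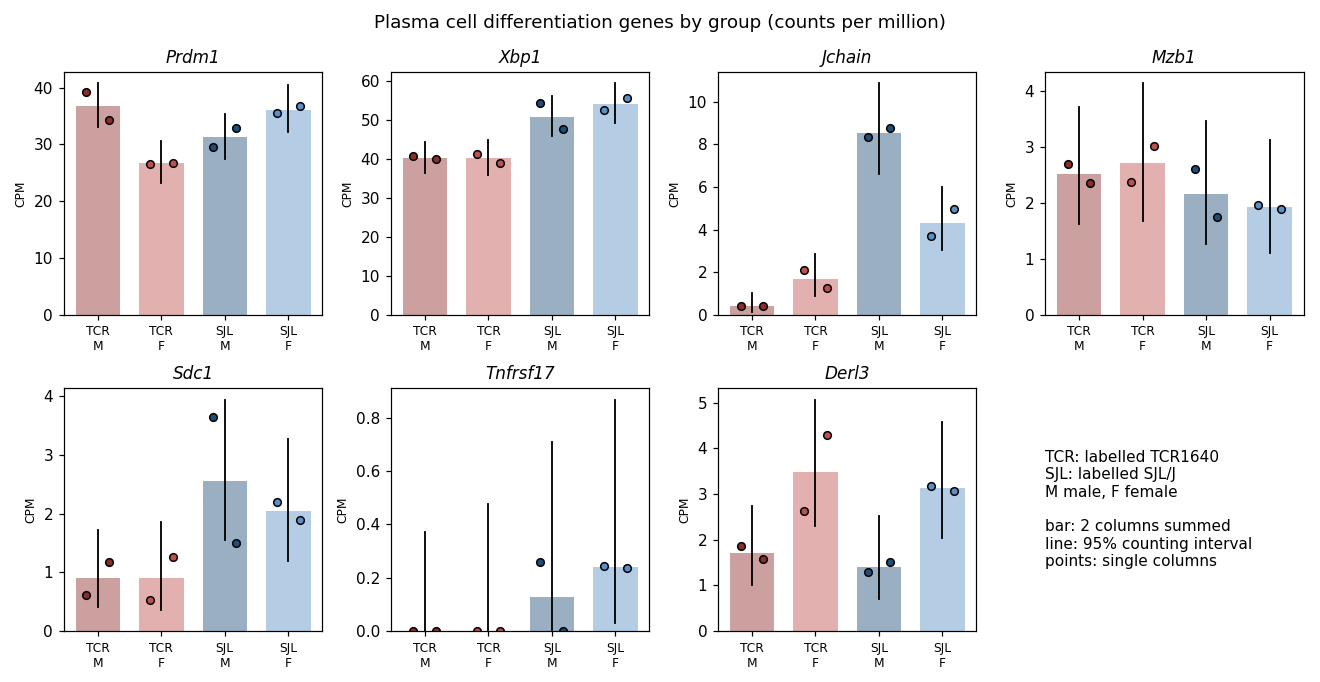
CPM (counts scaled to library size, with TMM) of each member in the 4 groups, males left of females. Bars are the 2 columns of a group summed, points the single columns and vertical lines exact 95% Poisson intervals for counting error, and the scale differs between panels. Jchain stands at 0.403 and 1.68 CPM in males and females labelled TCR1640, against 8.54 and 4.32 CPM in those labelled SJL/J.

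Pairs of groups were compared as log2 ratios of summed counts, with exact 95% intervals for counting error alone, and a gene was past 2-fold when it differed at least 2-fold with an interval that excluded equality. No replicates stand behind such a ratio, and none is given a p-value. The strain labels were also compared over both sexes in an additive edgeR model of the 4 summed samples, which has 1 residual degree of freedom. Its SE and adjusted p rest mainly on counting error and a spread shared over all genes, and do not measure how mice vary. How far a gene's own ratios differed between sexes or strains has little weight in them. Fewer cells of a type and less RNA per cell cannot be told apart in any of these comparisons.

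Prdm1 (ENSMUSG00000038151, chromosome 10, 44437177 to 44528501, minus strand, GRCm38) was a well-counted member whose male to female ratio differed in sign between labels, though the interval under the SJL/J label included equality. Its columns held 190 and 175 counts in TCR1640-labelled males and 101 and 106 in TCR1640-labelled females. They held 114 and 131 in SJL/J-labelled males and 145 and 156 in SJL/J-labelled females. On the scale of library size these were 36.8 and 26.7 CPM in TCR1640-labelled males and females, against 31.2 and 36.1 CPM in SJL/J-labelled males and females. The TCR1640-labelled females were lowest, and their counting interval (23.2 to 30.6 CPM) overlapped that of SJL/J-labelled males (27.5 to 35.4 CPM) alone. The male to female log2 ratio was 0.46 (0.21 to 0.72) under the TCR1640 label and -0.21 (-0.46 to 0.04) under the SJL/J label. These ratios differed by 0.67 (0.33 to 1.02), which is above equality and short of 2-fold, and there is no spread between samples to test it against. Between strain labels, Prdm1 stood at 0.24 (-0.00 to 0.47) in males and -0.44 (-0.70 to -0.18) in females, so the average over both sexes was small, at -0.09 (SE 0.15, edgeR adjusted p = 0.716).

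Xbp1 (ENSMUSG00000020484, chromosome 11, 5520659 to 5525893, plus strand) was lower under the TCR1640 label by the same order in both sexes. Counts per column were 197 and 203 in TCR1640-labelled males and 157 and 155 in TCR1640-labelled females. In SJL/J-labelled males they were 209 and 190 and in SJL/J-labelled females 215 and 236. Scaled, the males and females labelled TCR1640 both stood at about the same level, 40.3 and 40.2 CPM, below 50.9 and 54.2 CPM in males and females labelled SJL/J. The log2 ratio of TCR1640-labelled over SJL/J-labelled libraries was -0.34 (-0.54 to -0.13) in males and -0.43 (-0.64 to -0.22) in females. Over both sexes Xbp1 fell by 0.38 (SE 0.14, edgeR adjusted p = 0.0308), lower in 2 of 2 sexes. That call was lost with DESeq2 (adjusted p = 0.386), without a filter on low counts (edgeR adjusted p = 0.0769) and without any of 4 single columns (edgeR adjusted p = 0.0616 to 0.0957), namely TCR1640 female 2, TCR1640 male 2, SJL/J female 2 and SJL/J male 1. Between sexes the intervals of Xbp1 included equality, with male to female log2 ratios of 0.00 (-0.21 to 0.22) under the TCR1640 label and -0.09 (-0.29 to 0.11) under the SJL/J label.

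Jchain (ENSMUSG00000067149, chromosome 5, 88519809 to 88527891, minus strand) had the widest range of the members, on few counts. TCR1640-labelled male columns held 2 and 2 counts and TCR1640-labelled female columns 8 and 5. SJL/J-labelled male columns held 32 and 35 counts and SJL/J-labelled female columns 15 and 21. Every column labelled TCR1640 was below every column labelled SJL/J, and the sexes were in opposite order under the 2 labels. No share of all genes was counted for either order. In males the log2 ratio of TCR1640-labelled over SJL/J-labelled libraries was -4.41 (-6.32 to -2.98) and in females -1.37 (-2.41 to -0.42). Both are past 2-fold, but the female one is not without TCR1640 female 2 (-1.04, -2.35 to 0.09) or without SJL/J female 2 (-1.13, -2.32 to 0.04). The gap between the male and female ratios has little weight in the edgeR fit. Over both sexes Jchain fell by 2.68 (SE 0.41, edgeR adjusted p = 1.417e-09), lower in 2 of 2 sexes. It passed with DESeq2 as well (adjusted p = 0.00844) and without each single column (edgeR adjusted p at most 0.00328).

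Males had less Jchain than females under the TCR1640 label, with a log2 ratio of -2.06 (-4.13 to -0.36), and more under the SJL/J label, at 0.98 (0.38 to 1.61). The TCR1640 ratio rests on 4 male and 13 female counts, and its interval reached equality without TCR1640 female 1 (-1.65, upper bound 0.57), TCR1640 male 1 (-2.09, 0.05) or TCR1640 male 2 (-1.998, 0.14). The SJL/J ratio was past 2-fold without SJL/J female 2 (1.22) or SJL/J male 1 (1.01). The ratios differed by -3.04 (-4.76 to -1.32) between labels. Averaged over both strains the sex difference was 0.31 (SE 0.38, edgeR adjusted p = 0.884), a value whose sign turned to -0.50 when the 8 columns were fitted as separate samples.

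Mzb1 (ENSMUSG00000024353, chromosome 18), the ER partner of antibody chains, did not follow Jchain. Its columns held 13 and 12 counts in TCR1640-labelled males, 9 and 12 in TCR1640-labelled females, 10 and 7 in SJL/J-labelled males and 8 and 8 in SJL/J-labelled females. In CPM the groups ran from 1.92 to 2.71 and their counting intervals all overlapped. The log2 ratio of TCR1640-labelled over SJL/J-labelled libraries was 0.22 (-0.73 to 1.197) in males and 0.49 (-0.51 to 1.53) in females, so at this depth the intervals still hold a 2-fold difference upward. Over both sexes it stood at 0.35 (SE 0.43, edgeR adjusted p = 0.611), and between sexes at 0.02 (SE 0.43, edgeR adjusted p = 0.996).

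Sdc1 (ENSMUSG00000020592, chromosome 12, 8771323 to 8793715, plus strand), the sorting marker of plasma cells, was counted 53 times in all 8 columns. There were 3 and 6 counts in the TCR1640-labelled male columns and 2 and 5 in the female ones, against 14 and 6 in the SJL/J-labelled male columns and 9 and 8 in the female ones. In raw counts TCR1640 male 2 equalled SJL/J male 2, while scaled to library size both male columns labelled TCR1640 (0.621 and 1.18 CPM) were below both labelled SJL/J (3.64 and 1.51 CPM). That order is not agreement of replicates, since the columns of a group count as 1 sample. How many of all genes show it was not counted. The log2 ratio of TCR1640-labelled over SJL/J-labelled libraries was -1.49 (-2.81 to -0.29) in males, past 2-fold, and -1.18 (-2.69 to 0.17) in females. Without SJL/J male 1 the male ratio was -0.72 and without TCR1640 male 1 it was -1.12, and both intervals then included equality. Over both sexes Sdc1 fell by 1.34 (SE 0.53, edgeR adjusted p = 0.0456). It reached the filter on low counts in libraries labelled SJL/J alone, so a gene that passed in this way had to differ and the test supports nothing. That call was lost with DESeq2 (adjusted p = 0.578), without a filter (edgeR adjusted p = 0.0585), with TMM over genes free of opposite-strand overlap (edgeR adjusted p = 0.0533), and without each of 6 single columns (edgeR adjusted p = 0.0570 to 0.2505). The 2 columns whose loss left the call in place were TCR1640 female 2 and SJL/J male 2.

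Tnfrsf17 (ENSMUSG00000022496, chromosome 16, 11313812 to 11320074, plus strand) was at the edge of detection. All 4 columns labelled TCR1640 held 0 counts, against 1 and 0 in SJL/J-labelled males and 1 and 1 in SJL/J-labelled females. A count of 0 allows up to 0.302 CPM in TCR1640-labelled males and 0.387 CPM in TCR1640-labelled females (3 counts per summed group, counting error only). The exact 95% Poisson intervals drawn in the plot of levels end at 0.372 and 0.475 CPM. Both strains were at or under that floor, so no fold change is given. The receptor of mature plasma cells was therefore not detectable at this depth under the TCR1640 label and close to the floor under the SJL/J label.

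Derl3 (ENSMUSG00000009092, chromosome 10, 75893413 to 75895941, plus strand) was the member that went with sex under both labels. Its columns held 9 and 8 counts in TCR1640-labelled males and 10 and 17 in TCR1640-labelled females. SJL/J-labelled males had 5 and 6 counts and SJL/J-labelled females 13 and 13. Every male column was below every female column of the same label. Columns of a group are not replicates, and the share of all genes in such an order was not counted. The male to female log2 ratio was -1.02 (-1.99 to -0.09) under the TCR1640 label and -1.15 (-2.32 to -0.09) under the SJL/J label, both past 2-fold. The TCR1640 call was lost without TCR1640 female 2 (-0.62, -1.83 to 0.67), TCR1640 male 1, TCR1640 male 2 or SJL/J female 1, and the SJL/J call without any of the 4 SJL/J columns. Over both strains Derl3 stood at -1.08 (SE 0.43), lower in males in 2 of 2 strains, and it did not pass over all genes (edgeR adjusted p = 0.311). Between strain labels its intervals included equality, at 0.29 (-0.89 to 1.53) in males and 0.16 (-0.68 to 0.99) in females.

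**Figure D2:**
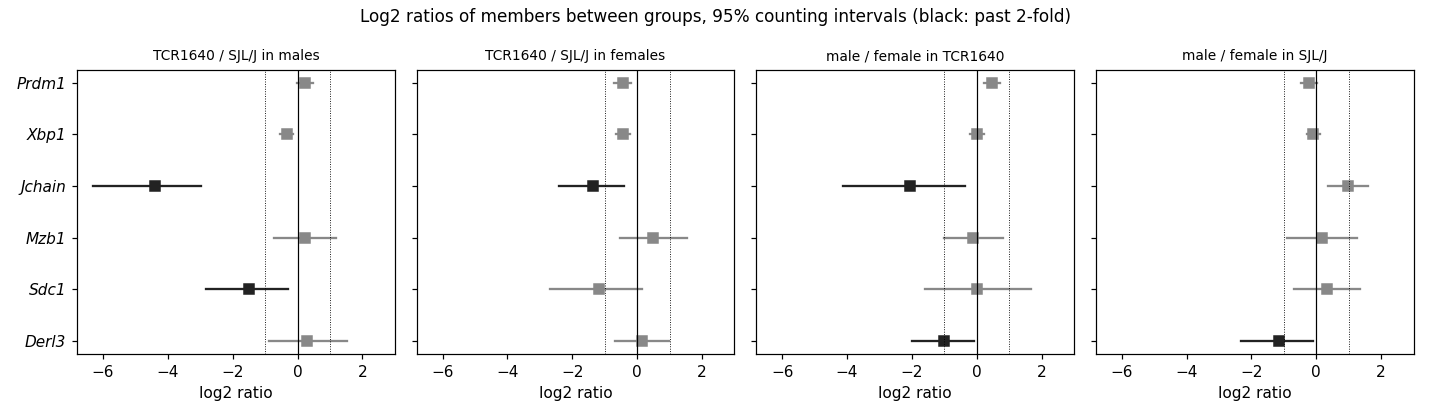
Log2 ratios of the 6 members with enough counts, with exact 95% counting intervals as horizontal lines, equality as a solid vertical line and 2-fold as dotted lines. The left panels set the TCR1640 label over the SJL/J label in males and females, the right panels males over females under each label. Black marks are past 2-fold: Jchain in 3 panels (-4.41, -1.37 and -2.06), Sdc1 in males (-1.49) and Derl3 between sexes (-1.02 and -1.15).

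Counted together, 6 of the 7 members passed the filter on low counts and Tnfrsf17 did not. Sdc1 passed only through the libraries labelled SJL/J, so counts over the 6 are a description and support nothing. Past 2-fold between strain labels were 2 members in males, Jchain and Sdc1, both lower, where 12.1% of 17261 genes were past 2-fold and 6.51% were so in the lower direction. In females it was 1 member, Jchain, where 9.9% of genes were past 2-fold and 5.5% lower. Between sexes Jchain and Derl3 were past 2-fold under the TCR1640 label (3.12% of genes, 2.05% lower) and Derl3 under the SJL/J label (2.56% of genes, 1.55% lower), each lower in males. The difference of the sex ratios was past 2-fold for Jchain, as it was for 4.65% of genes, with 2.61% of genes in its direction. The additive edgeR model passed 3 members between strain labels, Jchain, Xbp1 and Sdc1, all lower under the TCR1640 label, where it passed 26.5% of genes, 13.4% higher and 13.1% lower. Between sexes edgeR passed 0 members, where it passed 1.1% of genes, and DESeq2 passed 0 members. In edgeR 1 member (Derl3) had an unadjusted p under 0.05, a threshold at which no share of all genes was counted. The median of the 6 members between strain labels was -0.24, beside 0.01 for all genes tested. Between the 2 columns of a group, no member had a ratio whose interval excluded equality.

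Around the members, 4 of 9 antibody constant regions with enough counts fell under the TCR1640 label. The list holds 12, and 0 rose and 5 did not pass in edgeR over both sexes, beside 13.1% of all genes that fell and 13.4% that rose. DESeq2 gave the same counts. Of the 5, Ighd stood at 0.66 and Ighg3 at 0.20. Igha and Iglc2 reached the filter on low counts in libraries labelled SJL/J alone, so Igha had to differ and the count supports nothing. Igkc, the kappa light chain, had 119 and 163 counts in TCR1640-labelled males and females, against 480 and 437 in SJL/J-labelled males and females, and fell by 1.82 (SE 0.16, edgeR adjusted p = 3.776e-29). Igha, the IgA heavy chain that Jchain joins, had 4 and 6 counts in males and females labelled TCR1640, against 27 and 36 in those labelled SJL/J. Ighm, the other partner of Jchain, fell by 0.97 (SE 0.13, edgeR adjusted p = 2.224e-12). Ighg1 had 17 and 3 counts in TCR1640-labelled males and females, against 85 and 58 in SJL/J-labelled males and females. The summed constant regions stood at 97.9 and 118.9 CPM in TCR1640-labelled males and females, against 255.4 and 225.4 CPM in SJL/J-labelled males and females.

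Of 23 other genes of the plasma cell program, 21 had enough counts, and 7 rose and 9 fell between strain labels in edgeR (3 and 5 with DESeq2), beside 13.4% and 13.1% of all genes, with a median of 0.01, that of all genes. Igha, Igkc and Ighm are 3 of the 9, and Igha reached the filter in libraries labelled SJL/J alone. Of the 21 genes, 4 overlap a gene on the other strand and are uncertain. Irf4, the transcription factor that acts upstream of Prdm1 in B cells and is also induced in activated T cells, had 987 and 887 counts in TCR1640-labelled males and females, against 863 and 1013 in SJL/J-labelled males and females. Its change was -0.12 (SE 0.13, edgeR adjusted p = 0.556). Cd38, an ectoenzyme on plasma cells and on many other leukocytes, rose by 1.92 (SE 0.18, edgeR adjusted p = 2.238e-24).

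Of 30 genes of the unfolded protein response and ER quality control, the machinery that XBP1 serves, 18 fell under the TCR1640 label. All 30 had enough counts, and 0 rose and 12 did not pass in edgeR, beside 13.1% of all genes that fell and 13.4% that rose, with a median of -0.42. Among the 20 that share no exon bases with a gene on the other strand 13 fell, and DESeq2 passed 6 of the 30, all lower, where it passed 746 of 17261 genes as lower and 664 as higher. Calr, an ER chaperone of glycoproteins, had 284.0 and 263.3 CPM in TCR1640-labelled males and females, against 476.2 and 417.5 CPM in SJL/J-labelled males and females, and fell by 0.71 (SE 0.12, edgeR adjusted p = 3.481e-08). Creld2, a secreted ER stress protein, fell by 1.03 (SE 0.19, edgeR adjusted p = 1.219e-06). Hsp90b1, the ER paralog of HSP90, stood at -0.99 (SE 0.12, edgeR adjusted p = 1.381e-15) and is uncertain, since it overlaps a gene on the other strand. Of the 12 that did not pass, Dnajb9 (0.58), Dnajc3 (0.24) and Atf4 (0.02) stood above equality and the others below it. These 3 are named outside the naming rule, and Dnajb9 overlaps a gene on the other strand. Xbp1 itself, at -0.38, was near the median of this list. Whether genes of the list follow Xbp1 was not tested.

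Of 13 B cell identity genes with enough counts, from 16 that Blimp-1 represses in B cells, 6 rose, 1 fell and 6 did not pass in edgeR, beside 13.4% of all genes that rose and 13.1% that fell. With DESeq2 2 rose and 0 fell. Among the 8 free of opposite-strand overlap 3 rose and 0 fell. Those 3 were Cd79b, Cd79a and Id3. Cd79b, a signalling chain of the B cell receptor, had 67 and 44 counts in TCR1640-labelled males and females, against 15 and 7 in SJL/J-labelled males and females, and rose by 2.18 (SE 0.38, edgeR adjusted p = 2.088e-07). Its partner Cd79a rose by 0.73 (SE 0.17, edgeR adjusted p = 0.000181). Id3, an inhibitor of E proteins, rose by 1.07 (SE 0.35, edgeR adjusted p = 0.0124), and Bach2, a repressor that also holds T cells in a quiescent state, stood at 1.02 (edgeR adjusted p = 2.07e-10) and overlaps a gene on the other strand. Ms4a1, or CD20, had 1 to 8 counts per group and did not pass the filter. The 1 gene that fell was Cd22, which also overlaps one and is named outside the naming rule.

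**Figure D3:**
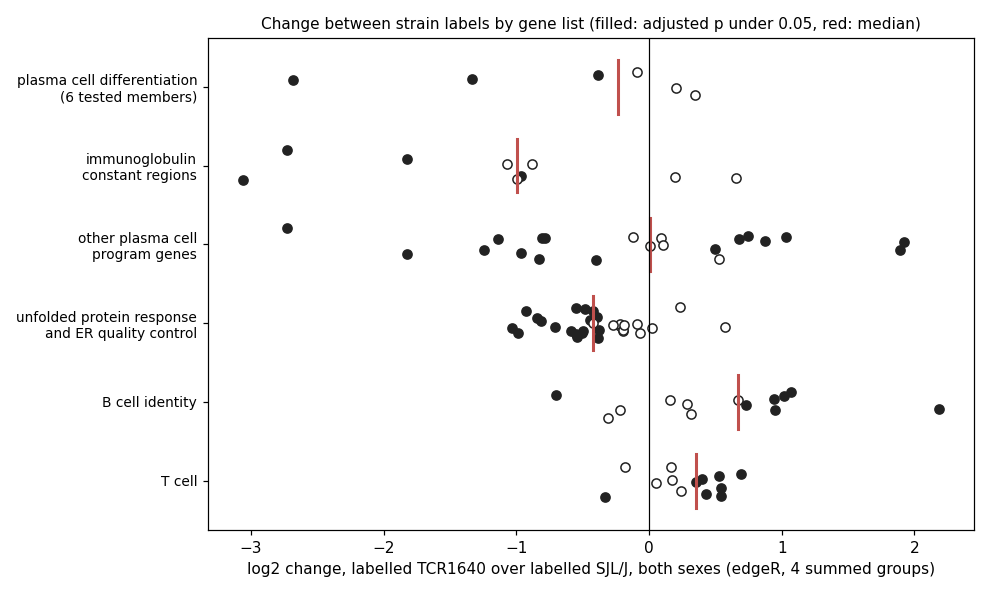
Log2 change between strain labels over both sexes (horizontal axis, TCR1640 over SJL/J, additive edgeR model of 4 summed samples) for each gene with enough counts, by list. Filled points passed at adjusted p under 0.05 and red lines are medians, at -0.24 for the members, -0.997 for immunoglobulin constant regions, 0.01 for other plasma cell program genes, -0.42 for ER genes, 0.67 for B cell identity genes and 0.35 for T cell genes. Some B cell identity, ER, other plasma cell program and T cell genes overlap a gene on the other strand and are uncertain.

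The receptors and ligands around Tnfrsf17 gave no call. Tnfrsf13b (TACI) and Tnfrsf13c (BAFF receptor) had enough counts, and 0 of the 2 passed in edgeR, at an unadjusted p under 0.05, or in DESeq2. Beside them 26.5% of all genes passed in edgeR, and with 2 genes the count is a description. Tnfrsf13b had 115 and 77 counts in TCR1640-labelled males and females, against 102 and 71 in SJL/J-labelled males and females, and its change was 0.01 (SE 0.21, edgeR adjusted p = 0.985). Tnfrsf13c stood at 0.62 (SE 0.35, edgeR adjusted p = 0.195). The ligands Tnfsf13 (APRIL) and Tnfsf13b (BAFF) had at most 5 counts in a group.

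Paralogs of the members also gave 0 calls among the 8 of 10 with enough counts, with 2 at an unadjusted p under 0.05 in edgeR and 0 in DESeq2. In edgeR 26.5% of all genes passed between strain labels. No share of all genes was counted at an unadjusted p, so these counts are a description. Of the other syndecans, Sdc4 stood at -0.38 (edgeR adjusted p = 0.0564) and Sdc3 at -0.25 (adjusted p = 0.196), and Sdc2 had 7 counts in all, all under the SJL/J label. Derl1 and Derl2, the broadly used derlins, both stood at -0.19 (edgeR adjusted p = 0.481 and 0.404). Of the related zinc finger genes, Prdm2 stood at 0.33 (edgeR adjusted p = 0.0661) and Prdm4 at -0.28 (adjusted p = 0.243). Zfp683, or Hobit, the nearest relative of Blimp-1 in T cells, had 2 counts in all. Sdc3 and Derl2 overlap a gene on the other strand.

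Between sexes, 0 genes of the immunoglobulin, other plasma cell program, ER, B cell identity, receptor and paralog lists passed over both strains, in edgeR or in DESeq2. Of all genes, edgeR passed 1.1% between sexes. At an unadjusted p under 0.05 in edgeR there were 2 immunoglobulin genes, 1 each of the program, ER and B cell identity lists, and 0 of the receptor and paralog lists. No share of all genes was counted at that threshold, so these counts are a description. Of the lists of other cells, 2 of 15 effector T cell genes were higher in males in edgeR, Il10 at 0.63 (adjusted p = 0.0214) and Prf1 at 0.68 (adjusted p = 0.000513). S100a8 at 1.48, S100a9 at 1.32 and Elane at 2.20, from the neutrophil list, were also higher in males. Those genes reached the filter in libraries labelled SJL/J alone, so the values describe that label and support nothing. Under the TCR1640 label S100a8 and Elane had 0 counts. There S100a9 had 3 and 5 counts in males and females, a log2 ratio of -1.09.

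Patterns over the 4 groups were compared as log2(CPM + 0.5) with each gene's mean taken off, and likeness was the root mean square difference from a member, over 4 groups, among 5955 or 5956 well-counted genes free of opposite-strand overlap. Nearest to Jchain was Ngp, a granule protein of neutrophil precursors, at 0.11, then Gm7676 at 0.32 and the chemokine receptor gene Ccr1 at 0.34, and 0 genes lay within 0.1. Nearest to Xbp1 were Rab11a (0.0028), Nup205 (0.0072) and Dck (0.011), with 365 genes within 0.1. Nearest to Prdm1 were Gm9855 (0.028), Abcb8 (0.030) and Gm5380 (0.031), with 138 genes within 0.1. Mzb1 was nearest to Pdk1 (0.016), Tmem106b (0.019) and Cnot6l (0.021), with 510 genes within 0.1. Sdc1 was nearest to Trps1 (0.016), Creld2 (0.028) and Avpi1 (0.032), with 37 within 0.1. Derl3 was nearest to Gm26824 (0.045), Zc3h12b (0.076) and Slc23a1 (0.088), with 6 within 0.1. With 4 points and so many genes close by, likeness describes the patterns of Xbp1, Prdm1 and Mzb1 as common ones among well-counted genes. It does not show that of Jchain to be rare. The distance is not scaled to a gene's range, so a wide pattern has fewer genes near it, and genes of low count were not compared. Jchain also had a wide counting interval in TCR1640-labelled males, 0.11 to 1.03 CPM.

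**Figure D4:**
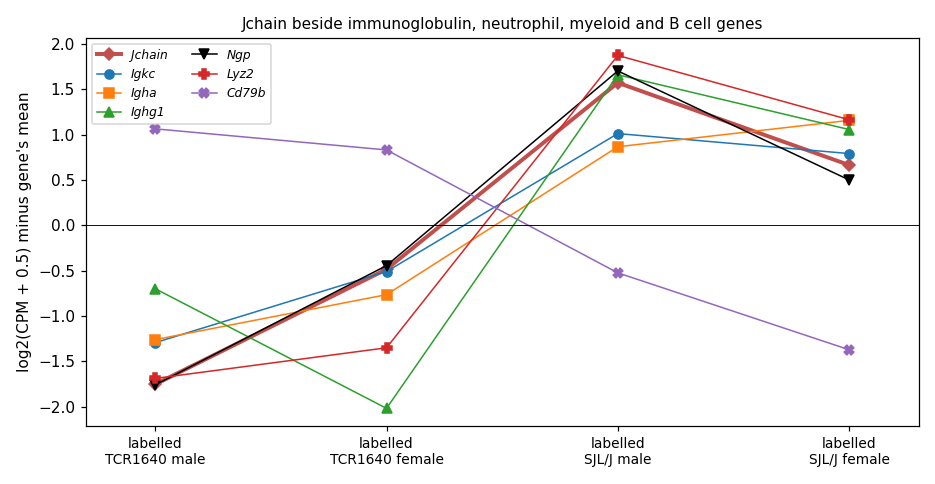
Log2(CPM + 0.5) minus each gene's mean over the 4 groups, for Jchain (thick line), 3 immunoglobulin constant regions (Igkc, Igha, Ighg1), the neutrophil gene Ngp, the myeloid gene Lyz2 and the B cell gene Cd79b. Jchain stands at -1.75 and -0.48 in males and females labelled TCR1640, against 1.57 and 0.66 in those labelled SJL/J, and the line of Ngp lies closest to it, while Cd79b goes the other way. The genes beside Jchain were chosen with their values known.

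Some markers of other cells also differed between strain labels, and others did not. Ngp had 14 and 33 counts in TCR1640-labelled males and females, against 161 and 72 in SJL/J-labelled males and females. A neutrophil list, added after Ngp was seen, had 9 of 12 genes with enough counts. S100a8, S100a9, Elane, Mpo, Camp and Ltf reached the filter in libraries labelled SJL/J alone, so no count of calls is given for it. Its summed level was 16.5 and 21.01 CPM in TCR1640-labelled males and females, against 164.6 and 67.5 CPM in SJL/J-labelled males and females, and S100a8 and Elane were at 0 counts under the TCR1640 label. The sum of these neutrophil genes was lowest in TCR1640-labelled males and highest in SJL/J-labelled males, the order of Jchain. Ngp, found by its likeness to Jchain, is part of that sum and stood at 1.41 and 4.25 CPM in TCR1640-labelled males and females. The list followed from Ngp, so the shared order supports nothing about neutrophils. Of the monocyte and macrophage list 6 of 10 had enough counts, 1 rose (Ctss) and 2 fell (Lyz2 and Ccr2) in edgeR, beside 13.4% and 13.1% of all genes, with sums of 199.1 and 211.2 CPM in TCR1640-labelled males and females, against 203.2 and 197.7 CPM in SJL/J-labelled males and females. Without genes that overlap one on the other strand, this list summed to 66.5 and 81.3 CPM in males and females labelled TCR1640. Under the SJL/J label it summed to 89.2 and 78.05 CPM. Lyz2 had 2 and 3 counts in TCR1640-labelled males and females, against 61 and 38 in SJL/J-labelled males and females, and reached the filter in the SJL/J-labelled libraries alone. Lyz2 therefore had to differ, and the count of calls in the monocyte and macrophage list supports nothing. Adgre1 had 1 count in all groups together.

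The T cell list had 13 of 13 genes with enough counts, of which 7 rose and 1, Trac (named outside the naming rule), fell in edgeR, beside 13.4% and 13.1% of all genes, with sums of 2301 and 2138 CPM in TCR1640-labelled males and females, against 1920 and 1755 CPM in SJL/J-labelled males and females. Cd3g rose by 0.54 (SE 0.12, edgeR adjusted p = 5.831e-05). Of the 13 T cell genes, 2 overlap a gene on the other strand and are uncertain. The B cell identity list, described above, summed to 135.9 and 134.1 CPM in TCR1640-labelled males and females, against 83.9 and 77.8 CPM in SJL/J-labelled males and females. Bach2, which also acts in T cells, gave 54.2 and 51.0 CPM of the TCR1640-labelled sums. Without genes that overlap one on the other strand, males and females stood at 53.0 and 51.0 CPM under the TCR1640 label. Under the SJL/J label they stood at 32.4 and 29.4 CPM. Of the plasmacytoid dendritic cell list, cells that also use some secretory genes, 8 of 12 had enough counts, 3 rose (Irf8, Pacsin1 and Ccr9) and 2 fell (Tcf4 and Runx2) in edgeR, beside 13.4% and 13.1% of all genes, and its defining marker Siglech had 1 count in all. Sums there were 225.6 and 217.1 CPM in TCR1640-labelled males and females, against 185.8 and 198.8 CPM in SJL/J-labelled males and females. Of the 8 genes, 3 overlap a gene on the other strand and are uncertain, Ccr9 and Runx2 among them. The part of these cell types in the member values was not tested.

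In T cells Blimp-1 acts in effector cells, and a list of 15 effector and resting T cell genes tied to it was set beside Prdm1. Of these 7 rose and 3 fell between strain labels in edgeR (6 and 1 with DESeq2), beside 13.4% and 13.1% of all genes in edgeR. Among the 15, 1 overlaps a gene on the other strand and is uncertain. Tcf7, a factor of resting T cells, had 486.6 and 434.5 CPM in TCR1640-labelled males and females, against 107.1 and 125.8 CPM in SJL/J-labelled males and females. The 3 that fell were Il17a (-1.42), Havcr2 (-0.89) and Tigit (-0.70), named outside the naming rule, as were Ctss and Ccr9 above. Lag3, an inhibitory receptor of activated T cells, rose by 0.69 (SE 0.12, edgeR adjusted p = 1.659e-07). Prdm1 stood at -0.09 beside them, and the 15 genes had a median of 0.28.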

How the data were processed

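The deposited table holds raw whole-number counts for 8 columns, with Ensembl gene identifiers. Per the submitters' processing notes the authors used bcl2fastq 2.17, Bowtie2, HTSeq and mm10, and per the labels' protocols a KAPA stranded mRNA kit with 500 ng of RNA. The strand setting of the counting is not given in the sources used here. Where a noncoding feature overlaps a coding gene (985 pairs, at least 200 counts each, 100 shared bases), it had more counts than the gene in 75.7% (exact 95% interval 72.9 to 78.4). No member shares exon bases with a gene on the other strand.

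Columns of 1 group had a chi-square over its degrees of freedom of 1.05 to 1.08, against 3.12 to 17.05 between groups, and were summed. Column totals ran from 3765291 to 5116467 counts, which leaves members under about 20 counts with wide intervals. Intervals cover counting error only. Symbols and positions came from GENCODE M21, which lacks 233 of the 52636 identifiers. edgeR 4.0.16 under R 4.3.3 (TMM, filterByExpr with a minimum count of 10, which here meant 1.23 CPM, quasi-likelihood F test, Benjamini-Hochberg over 17261 genes, threshold 0.05) fitted strain label and sex to the 4 sums, and a gene's log2 change divided by the root of its F value gave the SE. Scripts were tested on simulated data. Alternatives were RLE and upper-quartile factors, TMM over genes free of overlap, other filters, each column left out, single column numbers, 8 columns as separate samples with and without a replicate block, and DESeq2 1.42.0.

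Members and gene lists were chosen with earlier results of these data known. Genes named outside the 7 members were, in each list, the 2 with the highest mean CPM and the 2 with the largest change between strain labels (at least 20 counts), all receptors, ligands and paralogs, and the 3 nearest patterns for members with at least 50 counts. A gene that this rule names is not reported here. RPKM divides the CPM by exon length.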

Additional observations from a re-analysis of the deposited data

Results flagged for a closer look

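Jchain and Prdm1 had columns in opposite order between sexes under the 2 labels. The share of all genes with columns in such an order was not counted. Columns of a group count as 1 sample, so their order is not agreement of replicates. For Jchain the male library was below the female one under the TCR1640 label (4 against 13 counts, both columns of the male below both columns of the female) and above it under the SJL/J label (67 against 36 counts, both columns above). The log2 male to female ratios were -2.06 (-4.13 to -0.36) and 0.98 (0.38 to 1.61), a difference of -3.04 (-4.76 to -1.32). For Prdm1 both male columns were above both female ones under the TCR1640 label (0.46, 0.21 to 0.72) and below them under the SJL/J label (-0.21, -0.46 to 0.04), a difference of 0.67 (0.33 to 1.02). Neither difference was tested, since each group is 1 sample and the intervals cover counting error only. The strain names here are library labels that the T cell receptor segments go against.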

How the results depend on the processing

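In the additive model, 177 member values kept their direction and side of the threshold under other settings, 17 lost their call, 2 gained one and 10 changed sign. Of 103 recomputed ratios between groups, or differences of ratios, that were past 2-fold, 20 were no longer so, and of those not past it 3 became so (Jchain between sexes under the SJL/J label) and 22 changed sign, such as Derl3 between strain labels in females (-0.30 to 0.47) and Sdc1 between sexes under the SJL/J label (-0.45 to 0.83). The sign changes in the additive model were in sex differences that had not passed: Jchain stood at -0.50 with 8 columns as separate samples, at -0.50 with the replicate block and at -0.24 with DESeq2, and with columns left out Mzb1 ranged from -0.12 to 0.13 (0.29 from the number 1 columns alone), Sdc1 from -0.23 to 0.52 and Xbp1 from -0.092 to 0.014, or 0.017 from the number 1 columns alone. Members passing between strain labels over both sexes numbered 1 without a filter and 1 with DESeq2, in place of 3, and that 1 was Jchain. With 8 columns as separate samples, and again with the replicate block, 3 members passed between strain labels in females in place of 1, 2 passed for the difference of the sex ratios in place of 1 (Prdm1 at edgeR adjusted p = 0.00669 without the block), and 1, Derl3, passed between sexes over both strains in place of 0. Under each label alone Derl3 did not pass between sexes in those fits (edgeR adjusted p = 0.130 under TCR1640 and 0.157 under SJL/J without the block). There Jchain and Prdm1 passed under the TCR1640 label and Jchain under the SJL/J label. In males Jchain and Xbp1 passed between strain labels. These counts, and those of DESeq2 on 8 columns, rest on an adjusted p under 0.05 with no fold limit, another rule than past 2-fold. Those fits compare libraries and call 36% of genes in the female comparison, and Sdc1 did not pass their filter. DESeq2 on 8 columns gave 1 member between strain labels in males in place of 2, and 0 in the comparisons of the sexes under the TCR1640 label (in place of 2), under the SJL/J label (in place of 1) and for their difference (in place of 1). With columns left out, members past the threshold ranged from 0 to 1 between strain labels in females, 1 to 2 in males, 0 to 2 between sexes under the TCR1640 label, 0 to 1 under the SJL/J label and 1 to 3 between strain labels over both sexes. The cause of these changes was not tested. The replicate numbers did not pair the samples, with correlations of same-numbered columns from -0.013 to 0.025 over pairs of groups, and the block moved calls between strain labels to 7857, against 7821 without it. With DESeq2, 1410 genes passed between strain labels (664 higher, 746 lower) and 7 between sexes. Counting opposite-strand features with the members gave no separate value, since no member has one. The depth leaves Jchain under the TCR1640 label, Mzb1, Sdc1, Tnfrsf17 and Derl3 unable to show differences much under 2-fold.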
